A study of Mus musculus with 22 samples.

Results

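The effect of losing Slc10a1 on the mouse liver transcriptome was compared between juvenile mice of 4 weeks and adult mice of 8 weeks. Slc10a1 encodes NTCP, the sodium-dependent carrier that takes up conjugated bile acids into hepatocytes from the portal blood. The comparison is a difference of differences: knockout (KO) minus wild type (WT) at 8 weeks, less KO minus WT at 4 weeks. It used 16 of the 22 liver libraries of the series, taken by genotype and age from the sample titles: 3 WT and 3 Slc10a1-/- at 4 weeks, and 4 WT and 6 Slc10a1-/- at 8 weeks. Every library came from the liver of a male C57BL/6 mouse, and the labels name no treatment, litter or batch, and do not say how the knockout allele was made. The labels give each library as a replicate without saying that it is a separate mouse, so the p-values measure the spread between these samples, which may be technical. Total counts per library ran from 5496425 to 6956124 at 4 weeks and from 18950112 to 26066897 at 8 weeks. The series as a whole concerns the sulfation of bile acids in NTCP deficiency.

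Bile acids are made from cholesterol in hepatocytes and return to the liver in portal blood, and in hepatocytes they act through nuclear receptors that set the rates of their synthesis, transport and detoxification. Sulfation and glucuronidation make bile acids more soluble and ease their removal. The mouse liver is also a tissue of strong sex differences, set at puberty by the pattern of growth hormone pulses, so male-type expression is still being established between weaning and adulthood. Interferon-stimulated genes are switched on by transcription factors downstream of the interferon receptors, IRF7 among them, and encode antiviral proteins in hepatocytes and in resident macrophages (Kupffer cells) alike.

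Across 15302 genes with enough counts, 107 (0.699%) passed the test for a difference in KO effect between the ages, by edgeR's quasi-likelihood F-test at a Benjamini-Hochberg adjusted p under 0.05. The difference was higher (KO effect more positive at 8 weeks) for 56 genes (0.366%) and lower for 51 (0.333%). At an unadjusted p under 0.05 there were 2480 genes (16.2%). Of the same 15302 genes DESeq2 called 612 for the difference and limma voom with sample weights 704. Counts of differences by these rules within gene lists, given below, are to be read against these shares of all genes. The contrast of KO with WT at 4 weeks called 1074 genes higher (7.02%) and 878 lower (5.74%), 1952 in all (12.8%). At 8 weeks the same fit called 0 genes higher (0%) and 3 lower (0.0196%), namely Slc10a1 itself and the predicted genes Gm17167 and Gm5859, which lie outside the rule for named genes, against 1516 genes at an unadjusted p under 0.05, 120 called by DESeq2 and 938 by limma voom with sample weights.

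Slc10a1 (chr12:80953183-80968705, GRCm38, minus strand) was low in every KO library at both ages. In CPM, the counts scaled to library size, WT livers of 4 weeks held 586, 689 and 671, and KO livers 110, 266 and 147. At 8 weeks the WT libraries held 433, 440, 454 and 448, and the KO libraries ran from 49.0 to 93.0 with a median of 65.6. The groups did not overlap at either age. The log2 fold change was -1.90 at 4 weeks (SE 0.28, adjusted p = 0.00163) and -2.73 at 8 weeks (SE 0.21, adjusted p = 1.7e-05), and the difference between them, -0.84, did not pass (95% interval -1.57 to -0.11, adjusted p = 0.245). The remaining counts of this gene in KO livers were not assigned to exons here.

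The KO libraries of 8 weeks were not alike, and this bears on every 8-week value below. Of 28 male-biased liver genes, KO libraries 1, 2, 5 and 6 had 27, 28, 27 and 28 below every WT library of their age, while KO library 3 had 1 and KO library 4 had 0. In those 2 libraries 22 and 24 of the 28 genes lay above every WT library. The shares of all genes below or above WT in single libraries are not given here. Summed over the list, the level was 39680 and 38890 CPM in libraries 3 and 4, 1164 to 3321 CPM in the other 4, and 27380 to 32440 CPM in WT. Slc10a1 was low in both (68.7 and 72.8 CPM), so its level gives no reason to doubt their genotype label. Calls without these libraries are given beside the gene groups, as an alternative chosen after seeing the data; leaving out libraries because of their values makes the p-values of that fit too small. Among the 4-week libraries, KO 1 stood apart for Sult2a1 (8.63 CPM against 1162 and 1802) and WT 1 for Cyp3a11 (6746 CPM against 756 and 561). KO library 6 of 8 weeks held 5673 counts of 9 skeletal muscle markers (237 CPM), with 8 of the 9 detected, while each of the other 15 libraries held at most 3. Without this library 37 differences were called in place of 107. A drop was not particular to it: leaving out KO library 2, 3, 4 or 5 of 8 weeks gave 44, 76, 56 and 19, though leaving out KO library 1 gave 459.

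Each of the 107 genes with a called difference was called between KO and WT at 4 weeks and not at 8 weeks, and the estimated effect was the smaller at 8 weeks. The median size of the KO effect over these genes was 1.54 on the log2 scale at 4 weeks and 0.14 at 8 weeks, and the median size of the difference was 1.53. For 96 of them the 95% interval of the 8-week effect lay within -1 to 1, so an 8-week change of more than 2-fold lay outside it. The share of all genes with such an interval is not given here. Over all genes tested the median size of the 8-week effect was 0.20 and its median SE 0.24. Such an interval is therefore not particular to these genes. KO was below WT at 4 weeks for 56 and above for 51. The direction at 8 weeks was the same for 71 and opposite for 36. The groups did not overlap at 4 weeks for 107 of 107 genes (31.2% of all genes tested) and at 8 weeks for 4 of 107 (2.35% of all genes tested), namely Siglec1, Wdr77, Fbxo5 and 1700086O06Rik, seen after the values. The first of these follows from the way the genes were called, since the 4-week libraries enter the difference.

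Most genes called at 4 weeks had no called difference between the ages. Of the 1952 genes called at 4 weeks, 1845 had no called difference, and 1591 of those had an 8-week estimate of the same sign. Over all 15302 genes the 2 estimates shared a sign for 10101 (66%). The 8-week interval lay within -1 to 1 for 1570 of the 1952, again without the share over all genes beside it. A difference that missed the threshold does not show that the effects were equal: the median SE of the difference over the 1845 genes was 0.30 on the log2 scale.

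**Figure D1:**
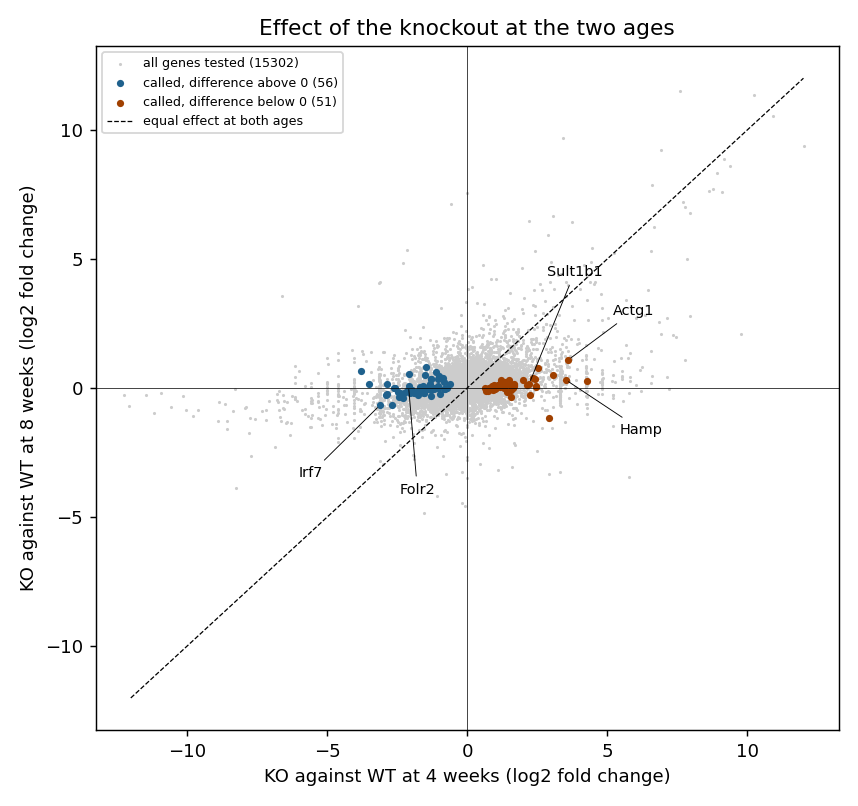
KO effect at 4 weeks (x axis) against KO effect at 8 weeks (y axis), both as log2 fold changes of KO against WT, for 15302 genes in grey, with the 56 genes called for a higher difference in blue and the 51 called for a lower difference in orange. The called genes lie near the horizontal line of no effect at 8 weeks, away from the dashed line of equal effects.

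The count of calls without KO libraries 3 and 4 of 8 weeks was larger and its makeup differed. In that fit 271 genes had a called difference, 181 higher and 90 lower, and 100 of the 107 genes were among them. At 8 weeks 1631 genes were then called, 891 higher and 740 lower, against 2500 at 4 weeks. The number called at both ages in the same direction was 535, which is 21.4% of the 4-week calls and 32.8% of the 8-week calls. Of the 271 differences, 151 belonged to genes called at 4 weeks alone and 68 to genes called at 8 weeks alone. Another 30 were called at both ages in opposite directions, 11 in the same direction with the smaller effect at 8 weeks and 10 in the same direction with the larger effect at 8 weeks. That every called difference belonged to a 4-week effect therefore held for the edgeR fit with 6 KO libraries and not for these 4. With the 6 KO libraries that fit called only 3 genes between KO and WT at 8 weeks, so few genes could fall in another class. On the same libraries DESeq2 and limma voom each called some differences for genes called at 8 weeks only.

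Interferon response genes were lower in KO than in WT livers at 4 weeks, and at 8 weeks the KO libraries lay on both sides of WT. Of 33 gene lists this one had the most differences called by edgeR. These were 6 of 30 tested, all higher, against 0.366% of all genes, and 0 lower. At an unadjusted p under 0.05 the difference was higher for 22 and lower for 0, and by DESeq2 for 15 and 0. Limma voom called 5 higher and 0 lower, fewer than the 6 endothelial markers it called. Every one of the 30 had a positive difference. The median difference over the list was 1.69, with a median KO effect of -1.82 at 4 weeks and -0.20 at 8 weeks. Over all genes tested these medians were 0.007, 0.016 and 0.012. At 4 weeks edgeR called 21 of the 30 lower in KO at the adjusted threshold, against 5.74% of all genes, and 0 higher. At an unadjusted p under 0.05 it was 27 lower and 0 higher, by DESeq2 24 and 0, and by limma voom 17 and 0. The shares of all genes by these other rules are not given here for 4 weeks. Without KO libraries 3 and 4 the difference was called for 6 members, the same genes, and the median difference was 1.36. In that fit the 8-week median was -0.44. At 8 weeks 2 members were called lower and 0 higher, against 740 and 891 of the 14997 genes tested.

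Promoter sequence is shown for members of this list because 6 of them had a called difference of 1 sign. In the 250 bases before the RefSeq transcription start (GRCm38.p6), the core of the interferon-stimulated response element was searched on both strands as GAAA, any 2 bases and GAAA again. It was present for 10 of the 21 list genes with a promoter in the table (47.6%), against 364 of 10895 genes tested (3.34%) and 978 of all 32851 windows (2.98%). A STAT5 element, TTCNNNGAA, which reads the same on both strands, was present for 3 of the 21 (14.3%), against 799 of 10895 (7.33%). Among the 6 genes with a called difference, Ifit3 and Rsad2 held the interferon core. Ifit3 had 2 matches, starting 156 and 122 bases before the start site, and Rsad2 had 1, starting 120 bases before it, all on the strand opposite to the gene. Irf7 is printed with them as the transcription factor of the group; its window held 0 matches to either motif, which says only that these letters are not in this window. Capitals mark the interferon core.
Ifit3 (chr19:34583279-34583528, plus strand): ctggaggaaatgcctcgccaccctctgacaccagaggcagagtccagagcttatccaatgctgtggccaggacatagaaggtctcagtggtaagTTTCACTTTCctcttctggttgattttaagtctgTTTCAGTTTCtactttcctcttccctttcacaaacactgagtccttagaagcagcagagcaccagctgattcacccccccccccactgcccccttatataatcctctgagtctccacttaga
Rsad2 (chr12:26456453-26456702, minus strand): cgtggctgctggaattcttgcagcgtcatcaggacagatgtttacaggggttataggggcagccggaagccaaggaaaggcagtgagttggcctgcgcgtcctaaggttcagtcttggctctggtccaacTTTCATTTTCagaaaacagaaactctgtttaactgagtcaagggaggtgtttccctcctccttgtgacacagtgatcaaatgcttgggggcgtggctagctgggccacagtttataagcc
Irf7 (chr7:141266425-141266674, minus strand): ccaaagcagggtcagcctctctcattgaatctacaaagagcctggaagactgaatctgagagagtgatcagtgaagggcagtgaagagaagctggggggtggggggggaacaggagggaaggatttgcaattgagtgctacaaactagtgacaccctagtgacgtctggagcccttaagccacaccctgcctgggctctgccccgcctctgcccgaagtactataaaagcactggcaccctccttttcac

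Irf7 (chr7:141262706-141266481), the interferon regulatory factor that amplifies type I interferon responses, had 23.3, 30.4 and 36.4 CPM in WT and 2.76, 3.80 and 3.95 CPM in KO at 4 weeks. At 8 weeks WT held 24.0, 21.1, 25.4 and 24.8 CPM, and KO ran from 8.31 to 22.9 with a median of 13.2. The KO libraries lay far under WT at 4 weeks and reached into the WT range at 8 weeks only in KO libraries 3 and 4, at 22.6 and 22.9 CPM. The KO effect was -3.11 at 4 weeks (SE 0.38) and -0.66 at 8 weeks (SE 0.24), a difference of 2.45 (SE 0.45, adjusted p = 0.0365). Without the 2 libraries the 8-week effect was -1.08 (adjusted p = 0.00149) and the difference 2.02 (adjusted p = 0.00629).

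Ifit3, a member of the interferon-induced family that binds foreign RNA, held 9.60, 8.45 and 12.8 CPM in WT and 0.690, 2.74 and 1.76 CPM in KO at 4 weeks. In adults WT ran from 7.06 to 9.02 CPM, and KO from 3.53 to 11.8 with a median of 7.53, so that WT lay inside the range of KO. The difference was 2.60 (SE 0.55, adjusted p = 0.0469). The mouse genome carries a close copy, Ifit3b, and reads may be split between them to an unknown degree. Ifit2, of the same family, had a difference of 1.51 (SE 0.29, adjusted p = 0.0373): KO held 2.86 to 3.80 CPM against 6.83 to 10.1 in WT at 4 weeks, and 6.22 to 10.1 against 6.82 to 9.19 at 8 weeks.

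Rsad2, which encodes the antiviral enzyme viperin, and Cmpk2, a mitochondrial nucleotide kinase, are neighbours on chromosome 12 and are often induced together. Rsad2 had 15.7, 13.3 and 19.3 CPM in WT and 8.28, 5.70 and 5.49 CPM in KO at 4 weeks, and a KO median of 16.2 CPM against 11.4 to 13.0 in WT at 8 weeks. The difference was 1.65 (SE 0.28, adjusted p = 0.0346). Cmpk2 fell further at 4 weeks, from 9.05, 4.83 and 6.63 CPM in WT to 0.863, 1.69 and 0.220 CPM in KO, and its difference was 3.02 (SE 0.61, adjusted p = 0.039). Its lowest KO value is under the 0.546 CPM that 3 counts make in that library. Xaf1, an interferon-induced promoter of apoptosis, completed the called members with a difference of 1.88 (SE 0.39, adjusted p = 0.0436).

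At 4 weeks all KO libraries lay below all WT libraries for 26 of the 30 list members (15.3% of all genes tested), and at 8 weeks for 1, Oas3 (1.17% of all genes tested). Oas3, a sensor that makes oligoadenylates on double-stranded RNA, had a KO effect of -3.64 at 4 weeks and -0.58 at 8 weeks (difference 3.06, adjusted p = 0.0836), with all KO values of 4 weeks at or under 0.518 CPM, below or close to what 3 counts make, so the fitted effect is uncertain. Oasl2 had -1.87 and -0.14 (difference 1.73, adjusted p = 0.062), and Isg15, a ubiquitin-like modifier, -2.14 and -0.18 (difference 1.96, adjusted p = 0.166). Ifih1, a cytosolic RNA sensor, had -0.40 and -0.21 (difference 0.18, adjusted p = 0.822). The summed level of the list was 490 to 568 CPM in WT and 133 to 245 CPM in KO at 4 weeks, which did not overlap. At 8 weeks it was 474 to 511 CPM in WT and 250 to 561 CPM in KO, with KO 1, 2 and 6 below WT, KO 5 within it and KO 3 and 4 above it. In bulk liver, fewer cells of a type and less RNA per cell cannot be told apart. Slfn8, a Schlafen family gene outside the list, had 2.59, 4.48 and 2.997 CPM in WT and 0.518, 1.06 and 0.220 CPM in KO at 4 weeks. Its difference was 2.34 (SE 0.50, adjusted p = 0.0476), called in 3 of the 16 fits that leave out a library. The KO value of 0.220 CPM is under the 0.546 CPM that 3 counts make in that library. That of 0.518 CPM is close to the 0.535 CPM that 3 counts make in its own.

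**Figure D2:**
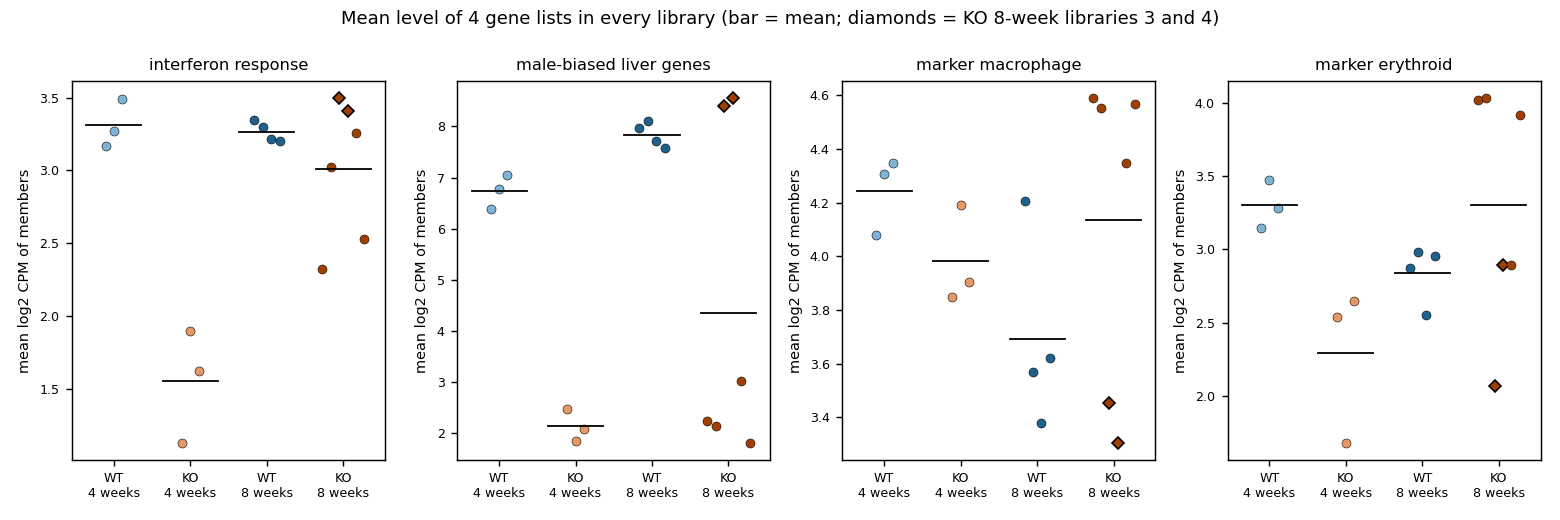
Mean log2 CPM of the tested members of 4 lists (y axis) in each of the 16 libraries by group (x axis), with the line at the group mean and diamonds for KO libraries 3 and 4 of 8 weeks. For the interferon list the 3 KO libraries of 4 weeks (1.13 to 1.90) lie below all 13 others, while for the male-biased list KO libraries 3 and 4 of 8 weeks (8.40 and 8.55) sit just above the highest WT library (8.11) and the other 4 at 3.02 or less.

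Among macrophage genes Siglec1, Folr2 and Clec4f had called differences of the same sign as the interferon genes. Siglec1, the sialic acid receptor of resident macrophages and itself inducible by interferon, had the second smallest adjusted p of the difference; it lies outside the rule for named genes and was picked after its values were seen. It held 14.8, 18.8 and 22.6 CPM in WT and 4.14, 4.43 and 2.86 CPM in KO at 4 weeks. Among 8-week libraries WT held 26.9 to 33.3 CPM, and KO 17.7 to 25.2 with a median of 22.95, so KO lay below WT without overlap at both ages, by a smaller margin at 8 weeks. Its difference was 1.91 (SE 0.25, adjusted p = 0.00789), and it was called in each of the 16 fits that leave out a library.

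Folr2, a folate receptor of resident macrophages (chr7:101839988-101857194), had 15.5, 21.9 and 27.3 CPM in WT and 3.28, 6.33 and 5.71 CPM in KO at 4 weeks. In the 8-week livers WT had 10.7, 8.64, 8.36 and 8.23 CPM, and KO ran from 6.995 to 10.9 with a median of 10.2. The WT level was lower at 8 weeks than at 4 weeks and the KO level higher, and the 2 genotypes overlapped at 8 weeks. The difference was 2.17 (SE 0.33, adjusted p = 0.0186). Its call was lost without WT library 3 of 4 weeks and without WT library 2, 3 or 4 of 8 weeks, with adjusted p up to 0.0601.

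Clec4f, the lectin that defines Kupffer cells, was the 1 member of 16 macrophage markers with a difference called by edgeR. Its difference was 1.64 (SE 0.33, adjusted p = 0.0389). It had 178, 211 and 231 CPM in WT and 58.0, 100 and 94.7 CPM in KO at 4 weeks. At 8 weeks WT ran from 108 to 124 CPM, KO libraries 1, 2, 5 and 6 from 163 to 185 CPM, and KO libraries 3 and 4 held 102 and 96.5 CPM. The median over the 16 markers was -0.52 for the KO effect at 4 weeks, 0.32 at 8 weeks and 0.80 for the difference, and 14 of 16 differences were positive. Their summed level was 815 to 994 CPM in WT and 531 to 780 CPM in KO at 4 weeks, and 461 to 680 CPM in WT and 433 to 1040 CPM in KO at 8 weeks. Of the 16 markers 7 had a higher difference at an unadjusted p under 0.05 and 0 a lower one. DESeq2 called 3 and limma voom 4, all higher. The part of macrophage number in the interferon result was not tested. With KO libraries 3 and 4 left out, Clec4f, Cd5l, Csf1r and Timd4 had called differences, all higher.

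Of 18 endothelial markers 0 were called by edgeR (6 at an unadjusted p under 0.05, 3 by DESeq2, 6 by limma voom), with a median difference of 0.76. Leaving out KO libraries 3 and 4, 4 of them had called differences, all higher: Cdh5 at 1.82, Flt4 at 1.42, Pecam1 at 1.09 and Stab1 at 0.96. Of 14 lymphocyte markers 0 were called (2 at an unadjusted p under 0.05, 0 by DESeq2, 0 by limma voom), with a median difference of 0.88 and a summed level of at most 22.7 CPM. Of 8 neutrophil markers tested 0 were called (1 at an unadjusted p under 0.05, 0 by DESeq2, 0 by limma voom). The hepatocyte markers, led by Alb, were present in all libraries, and their median difference was -0.06 over 12 genes, with 0 called (2 at an unadjusted p under 0.05, 0 by DESeq2, 1 by limma voom).

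Klf1 was the 1 erythroid marker with a difference called by edgeR. DESeq2 called 4 markers higher and 1 lower, and limma voom 0 and 1. At an unadjusted p under 0.05, 6 were higher and 1 lower. Klf1, the transcription factor that drives globin genes, had 0.554, 1.72 and 0.631 CPM in WT and 6.90, 4.85 and 4.39 CPM in KO at 4 weeks. In adults WT ran from 2.55 to 3.36 CPM and KO from 2.21 to 4.10, and the difference was -2.40 (SE 0.45, adjusted p = 0.0365). The lowest WT value of 4 weeks is close to the 0.518 CPM that 3 counts make in that library. Of the 11 erythroid markers tested, the other 10 had positive estimates that did not pass by edgeR, and the list median was 2.54. Hba-a1, which encodes alpha globin, had a KO effect of -1.06 at 4 weeks and 1.66 at 8 weeks (difference 2.73, adjusted p = 0.152). Without KO libraries 3 and 4 the differences of Hba-a1, Hba-a2, Hbb-bs and Hbb-bt were called, all higher, and globin copies are near-identical, so reads may be shared between them. The summed level of the erythroid list was 412 to 580 CPM in WT and 230 to 312 CPM in KO at 4 weeks, and 192 to 248 CPM in WT and 180 to 716 CPM in KO at 8 weeks.

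Sult1b1 had the smallest adjusted p of all genes for the difference, and its direction was opposite to that of the interferon genes. It encodes a cytosolic sulfotransferase that acts on thyroid hormones and small phenols, and lies at chr5:87513339-87538195 (minus strand). At 4 weeks WT held 19.8, 19.7 and 17.8 CPM and KO 96.1, 81.9 and 87.0 CPM. Among 8-week libraries WT held 25.4, 25.7, 26.8 and 25.6 CPM, and KO ran from 20.0 to 38.4 with a median of 28.1. The KO libraries of 4 weeks stood above all others, and at 8 weeks WT lay within KO. The KO effect was 2.21 at 4 weeks (SE 0.19) and 0.16 at 8 weeks (95% interval -0.14 to 0.46), and the difference was -2.05 (SE 0.23, adjusted p = 0.00263). It was called in all 16 fits that leave out a library, with adjusted p from 0.000445 to 0.0287.

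Of 20 sulfation genes tested, 6 were higher and 1 lower in KO at 4 weeks, against 7.02% and 5.74% of all genes, and Sult1b1 was the 1 with a called difference (0 higher, 1 lower). The list medians were 1.35 at 4 weeks, 0.43 at 8 weeks and -0.29 for the difference, with 7 of 20 differences positive. Sult1e1, the estrogen sulfotransferase, had 1.29, 4.14 and 2.05 CPM in WT and 1827, 537 and 1276 CPM in KO at 4 weeks. In the 8-week livers WT held at most 0.838 CPM; KO libraries 1, 2, 5 and 6 held 400, 445, 19.2 and 340 CPM, and KO libraries 3 and 4 held 0.849 and 0.281 CPM. Its KO effect was 8.92 at 4 weeks and 8.33 at 8 weeks, with a difference of -0.59 whose 95% interval ran from -5.36 to 4.17 (adjusted p = 0.935). Sult2a1, which sulfates hydroxysteroids and bile acids and whose near-identical copies may share reads, had 10.91 and 10.53, with a difference of -0.38 and an interval from -11.3 to 10.6 (adjusted p = 0.991). Both intervals reach far to either side of 0, so neither direction nor equality can be read from them. Sult2a8, a hepatic bile acid sulfotransferase, had a difference of 1.72 (interval -0.42 to 3.86, adjusted p = 0.424). Leaving out KO libraries 3 and 4 gave 0.53 (adjusted p = 0.762), with an 8-week KO effect of -1.90 (adjusted p = 0.0255). That fit also called the 8-week effects of Sult1e1 (8.91, adjusted p = 2.2e-05) and Sult2a1 (11.1, adjusted p = 0.00099). Of the 20 list genes it called 10 higher and 4 lower at 8 weeks, against 891 and 740 of 14997 genes tested. Sult1b1 stayed the 1 called difference.

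Hamp, the gene of the iron hormone hepcidin, was the 1 member of the 28 acute phase genes called by edgeR (0 higher, 1 lower). It had 180, 309 and 88.8 CPM in WT and 1537, 3199 and 1860 CPM in KO at 4 weeks. At 8 weeks WT had 283, 292, 414 and 409 CPM, and KO ran from 192 to 793 with a median of 404. The KO effect was 3.51 at 4 weeks (SE 0.51) and 0.32 at 8 weeks (SE 0.37), and the difference was -3.19 (SE 0.61, adjusted p = 0.0365). Its copy Hamp2 had a KO effect of 4.58 at 4 weeks and 4.10 at 8 weeks (difference -0.48, SE 1.80, adjusted p = 0.935), so the 2 copies differed in estimate; Hamp2 was looked at after the data were seen, and reads may be shared between the copies. The median difference of the acute phase list was -0.41, with 8 of 28 positive. DESeq2 and limma voom each called 1 member higher and 1 lower. At an unadjusted p under 0.05, 3 were higher and 2 lower.

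**Figure D3:**
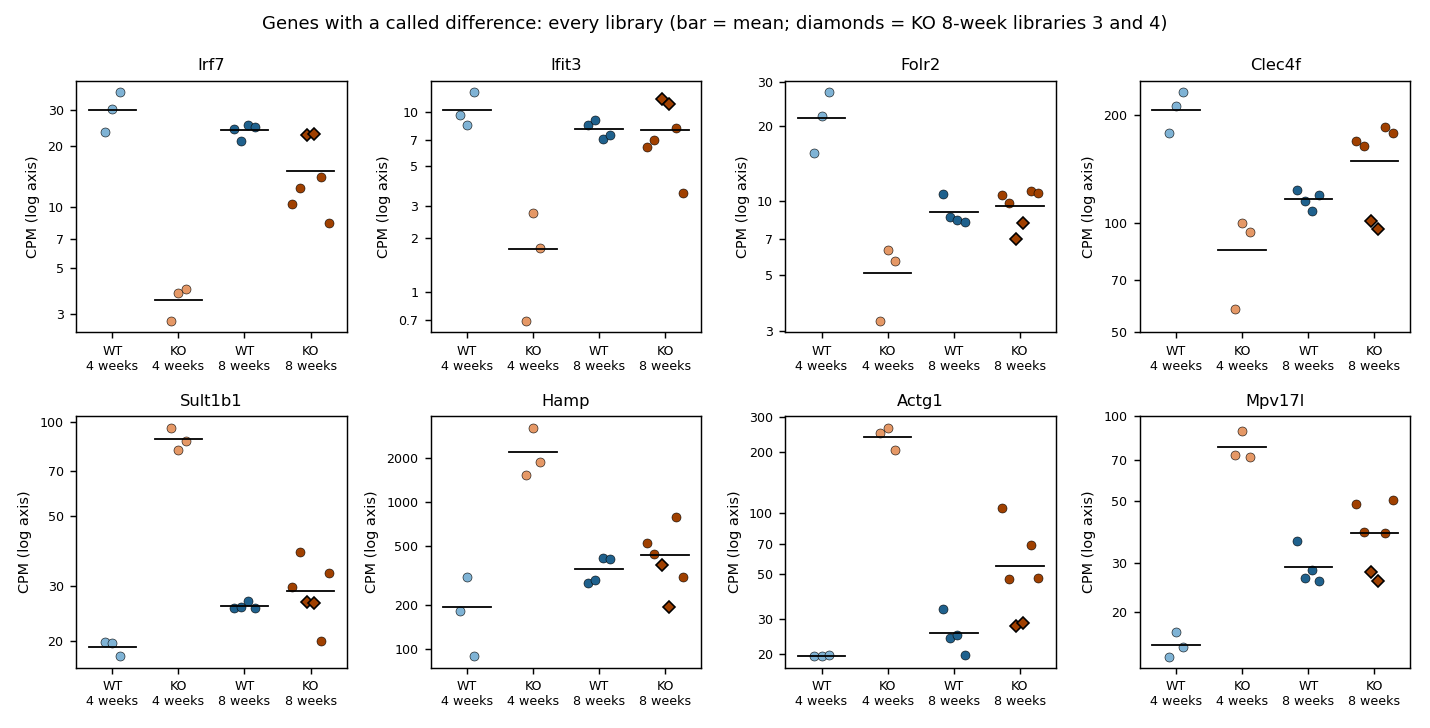
CPM on a log axis (y axis) of 8 genes with a called difference in each of the 16 libraries by group (x axis), with lines at group means and diamonds for KO libraries 3 and 4 of 8 weeks. In the upper row KO of 4 weeks lies below WT of 4 weeks and in the lower row above it, without overlap, while at 8 weeks KO and WT overlap in all 8 genes.

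Other genes with a higher KO level at 4 weeks included structural and mitochondrial genes. Actg1, which encodes cytoplasmic gamma actin, had 19.6, 19.7 and 19.9 CPM in WT and 248, 264 and 205 CPM in KO at 4 weeks. In adults WT held 33.7, 24.1, 24.97 and 19.9 CPM; KO libraries 1, 2, 5 and 6 held 107, 47.2, 69.4 and 47.6 CPM and KO libraries 3 and 4 held 27.7 and 28.5 CPM. The KO effect was 3.60 at 4 weeks (SE 0.43) and 1.09 at 8 weeks (SE 0.31, adjusted p = 0.347), and the difference was -2.51 (SE 0.50, adjusted p = 0.0387). With KO libraries 3 and 4 left out the 8-week effect was 1.40 and called (adjusted p = 0.00216), so the effect was then smaller rather than missing at 8 weeks. Actin genes have close paralogs and processed pseudogenes, and how reads were shared among them is not given in the sources used here.

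Mpv17l, whose product lies in peroxisomes and mitochondria and bears on reactive oxygen, had 13.9, 16.9 and 15.0 CPM in WT and 73.0, 88.6 and 71.8 CPM in KO at 4 weeks. Among 8-week libraries WT ran from 25.8 to 35.8 CPM and KO from 25.7 to 50.1 with a median of 38.5. The difference was -1.96 (SE 0.30, adjusted p = 0.0186), and without KO libraries 3 and 4 its 8-week effect of 0.60 was called (adjusted p = 0.0161). Its call for the difference was lost without WT library 3 of 4 weeks and without WT library 3 of 8 weeks, at adjusted p up to 0.065. Dmd, the dystrophin gene, was picked after its values were seen, for the third smallest adjusted p. It had 18.8, 23.5 and 17.0 CPM in WT and 70.0, 61.4 and 45.7 CPM in KO at 4 weeks, against 41.3 to 48.3 and 34.8 to 51.1 CPM at 8 weeks (difference -1.65, SE 0.24, adjusted p = 0.0162). For Dmd the WT level at 8 weeks approached the KO level of 4 weeks.

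Several regulators were among the genes with the most negative differences. Klf10, a TGF-beta-inducible transcription factor, had 16.6, 13.5 and 20.0 CPM in WT and 153, 78.5 and 40.2 CPM in KO at 4 weeks, and 15.4 to 18.9 against 17.4 to 25.4 CPM at 8 weeks (difference -2.09, SE 0.42, adjusted p = 0.0402). Trdmt1, an RNA methyltransferase that acts on transfer RNA, had 0.862 to 1.66 CPM in WT and 8.63 to 14.6 CPM in KO at 4 weeks, and 1.75 to 2.43 against 2.06 to 4.15 CPM at 8 weeks (difference -2.55, SE 0.42, adjusted p = 0.030). Mapk8ip1, a scaffold protein of JNK signalling, had 0.554 to 1.04 CPM in WT and 2.32 to 6.21 CPM in KO at 4 weeks. It overlapped at 8 weeks (difference -2.42, SE 0.53, adjusted p = 0.0492). Its lowest WT value is close to the 0.518 CPM that 3 counts make in that library. Its call was kept in 2 of the 16 fits that leave out a library. For Klf10 and Trdmt1 the 3 KO libraries of 4 weeks were the highest of the 16, while for Mapk8ip1 the lowest of them lay inside the 8-week range.

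Genes with a lower KO level at 4 weeks outside the interferon and macrophage groups included Ugt1a9, Tle2 and Coro2b. Ugt1a9, which encodes a UDP-glucuronosyltransferase, had 89.4, 39.0 and 48.3 CPM in WT and 11.2, 10.6 and 7.69 CPM in KO at 4 weeks, and 35.2 to 49.9 CPM in WT against 27.0 to 77.3 CPM in KO at 8 weeks. Its difference was 2.59 (SE 0.49, adjusted p = 0.0365). It shares its last exons with the other Ugt1a genes, so its reads are uncertain. It was the 1 called by edgeR among 18 glucuronidation genes, whose median difference was 0.35. DESeq2 called 2 of them and limma voom 1, all higher, with 5 higher and 0 lower at an unadjusted p under 0.05. Without KO libraries 3 and 4 Ugt2b35 was also called, lower. Tle2, a Groucho-family corepressor, had 7.94, 11.9 and 11.04 CPM in WT and 2.59, 1.06 and 2.20 CPM in KO at 4 weeks, against 5.36 to 6.55 and 3.57 to 7.13 CPM at 8 weeks (difference 2.21, SE 0.40, adjusted p = 0.0365). Coro2b, an actin-binding coronin, had 2.05 to 2.59 CPM in WT and 0.659 to 0.863 CPM in KO at 4 weeks. Its KO level at 8 weeks, 2.37 to 4.39 CPM, reached above the 1.83 to 2.73 CPM of WT (difference 2.04, SE 0.43, adjusted p = 0.0433). The lowest KO value of 4 weeks is not far above the 0.546 CPM that 3 counts make in that library. The Coro2b call was kept in 2 of the 16 fits that leave out a library.

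Cell cycle genes had a positive median difference and 1 call. Of 29 tested, 1 was called higher and 0 lower, namely Cdkn3, a phosphatase of cyclin-dependent kinases. At an unadjusted p under 0.05, 12 were higher and 1 lower, against 16.2% of all genes in either direction. DESeq2 called 5 and limma voom 2, all higher, against 612 and 704 of all 15302 genes. The median was -1.13 for the KO effect at 4 weeks, 0.41 at 8 weeks and 1.66 for the difference. Cdkn3 was near the detection floor: WT held 1.29 to 2.93 CPM and KO 0 to 0.211 CPM at 4 weeks, where 3 counts make about 0.52 to 0.55 CPM in the KO libraries, so its fitted difference of 4.46 (SE 0.92, adjusted p = 0.0421) depends on the counting floor. Mki67, the proliferation marker, had a KO effect of -1.76 at 4 weeks and 1.28 at 8 weeks (difference 3.04, adjusted p = 0.165). Without KO libraries 3 and 4, Mki67, Aurkb, Ccna2 and Cdkn3 had called differences, all higher.

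The change with age behind the 107 differences came more often from KO than from WT livers. KO changed more between 4 and 8 weeks for 79 of the 107 genes and WT for 28. The median size of the change was 1.26 in KO and 0.55 in WT on the log2 scale. Irf7 is an example of the first kind, with a change of 2.11 in KO and -0.34 in WT, and Mapk8ip1 of the second, with -1.09 in KO and 1.32 in WT. The file names mark the juvenile libraries as paired-end and the adult ones as single-end, so age cannot be told apart from library format or sequencing run. The difference of KO effects compares genotypes within each age first, but it still sets paired-end, shallower libraries against single-end, deeper ones. A KO effect that depends on age cannot be told apart here from a KO effect that depends on format, depth or run.

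Male-biased liver genes had a KO effect of several log2 units at 4 weeks and no called difference. Of 28 male-biased genes, 0 were called for the difference by edgeR in the 16 libraries (10 higher at an unadjusted p under 0.05, 8 by DESeq2, 0 by limma voom). The median KO effect was -4.31 at 4 weeks and -0.82 at 8 weeks and the median difference 3.39, with 26 of 28 positive. With KO libraries 3 and 4 left out the 8-week median was -5.62, the median difference -0.25, and 6 genes had a called difference, all lower: C6, Susd4, Cyp7b1, Cyp2d9, Selenbp2 and Cyp4a12b. The direction of the list's median thus turned on these 2 libraries. At 4 weeks 6 of the 28 were called lower in the fit of 16 libraries, against 5.74% of all genes. In a fit of the 4-week libraries alone, the spread of the 8-week KO libraries does not enter. That fit called 23 of the 28 lower, and 624 genes lower in all.

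Cyp7b1, the oxysterol 7-alpha-hydroxylase of the alternative pathway of bile acid synthesis and a male-biased gene, shows both ages in one. At 4 weeks WT held 51.5, 43.1 and 42.8 CPM and KO 5.18, 3.59 and 4.17 CPM. In the 8-week livers WT held 423, 518, 403 and 257 CPM, KO libraries 1, 2, 5 and 6 held 7.61, 4.83, 7.28 and 8.46 CPM, and KO libraries 3 and 4 held 661 and 817 CPM. The WT level was higher at 8 weeks, 4 of the 6 KO livers stayed near the 4-week KO level, and the other 2 lay above WT. The difference was 2.73 with all 6 (95% interval -1.65 to 7.10, adjusted p = 0.548) and -2.43 without libraries 3 and 4 (adjusted p = 0.00629), a reversal of sign.

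Elovl3, a fatty acid elongase with male-biased expression, had 132, 63.8 and 59.2 CPM in WT and 0.173, 0.211 and 0.439 CPM in KO at 4 weeks. At 8 weeks WT held 46.0 to 68.1 CPM, KO libraries 1, 2, 5 and 6 held 0.0861 to 0.252 CPM, and libraries 3 and 4 held 117 and 199 CPM. Its difference was 8.27 with an interval from 1.05 to 15.5 (adjusted p = 0.246), and 0.06 without the 2 libraries (adjusted p = 0.998). Mup20, a major urinary protein whose cluster of copies makes its reads uncertain, had a difference of 5.56 (adjusted p = 0.28) and -0.21 without the 2 libraries (adjusted p = 0.956). Slco1a1, a male-biased organic anion carrier, had 4.06 (adjusted p = 0.234) and 0.69 (adjusted p = 0.526). At 8 weeks Slco1a1 stood at 15.3 to 46.5 CPM in KO libraries 1, 2, 5 and 6, at 819.8 and 940.1 CPM in KO libraries 3 and 4, and at 559.5 to 810.3 CPM in WT.

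Female-biased genes were higher in KO at both ages by their medians, 1.66 at 4 weeks and 2.92 at 8 weeks over 24 genes, with a median difference of 0.90. By edgeR 0 differences were called (2 higher at an unadjusted p under 0.05, 2 by DESeq2, 0 by limma voom). Without KO libraries 3 and 4, Cyp39a1, Cyp2b9, Slc22a26 and Cyp2a4 were among the members called, all higher. In that fit the list's 8-week median was 3.76.

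**Figure D4:**
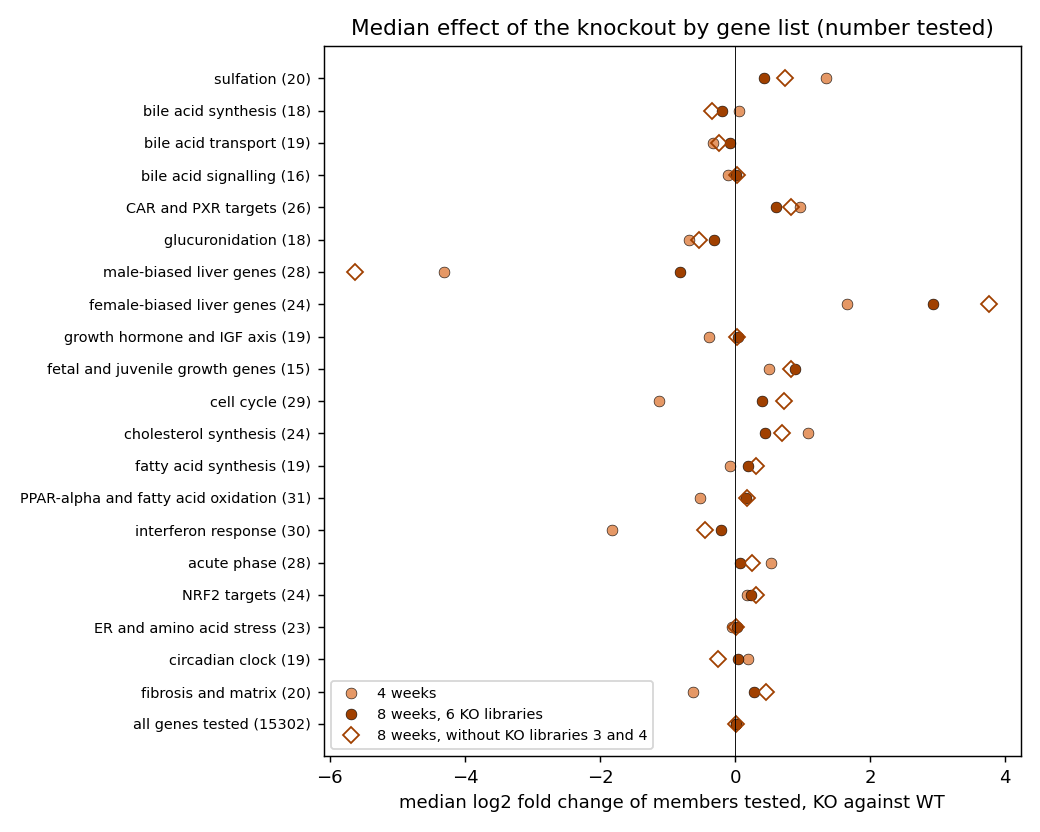
Median log2 fold change of KO against WT over the tested members of each gene list (x axis) at 4 weeks (light), at 8 weeks with 6 KO libraries (dark) and at 8 weeks without KO libraries 3 and 4 (open diamonds). The interferon list moves from -1.82 to -0.20 with the 2 libraries and to -0.44 without them. The male-biased list moves from -4.31 to -0.82 with them and to -5.62 without them.

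Of 18 genes of bile acid synthesis, 19 of transport and 16 of signalling, 0 were called by edgeR, with 4, 5 and 1 at an unadjusted p under 0.05. DESeq2 called 1, 1 and 0, and limma voom 1, 2 and 0. The median differences were 0.11, 0.65 and 0.12. Leaving out KO libraries 3 and 4, the difference was called for Cyp39a1, an oxysterol hydroxylase, at 2.25 (adjusted p = 0.00629), for Cyp7b1 as above, and for Abcb1b, a multidrug export pump, at -2.67 (adjusted p = 0.0346). Cyp7a1, the rate-limiting enzyme of the classic pathway, had 69.4, 54.8 and 22.9 CPM in WT and 51.9, 52.3 and 95.3 CPM in KO at 4 weeks. In adults WT held 559, 982, 593 and 475 CPM and KO 22.3, 31.7, 396, 375, 501 and 199 CPM, of which 5 lay below the WT range and 1 inside it. Its difference was -1.80 (interval -4.07 to 0.47, adjusted p = 0.428). Abcb11, the bile salt export pump, had a difference of 0.62 (interval -0.30 to 1.55, adjusted p = 0.509). For Slco1a4, a basolateral organic anion carrier, it was -0.47 (interval -3.14 to 2.21, adjusted p = 0.902), and 0.085 without KO libraries 3 and 4 (adjusted p = 0.981).

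Among 26 targets of the xenobiotic receptors CAR and PXR, 0 differences were called (6 at an unadjusted p under 0.05, 3 by DESeq2, 1 by limma voom), with medians of 0.96 at 4 weeks and 0.60 at 8 weeks. Cyp2b9 and Cyp2a4 of this list were called higher when KO libraries 3 and 4 were left out. Cyp2b10, the classic CAR target, had 3.88, 0.517 and 0.316 CPM in WT and 15.7, 5.70 and 12.3 CPM in KO at 4 weeks. Among 8-week libraries WT held at most 0.686 CPM, KO libraries 1, 2, 5 and 6 held 66.0, 38.8, 40.1 and 30.5 CPM, and libraries 3 and 4 held 0.526 and 0.442 CPM. Its difference was 3.04 (interval -1.13 to 7.21, adjusted p = 0.467) and 3.61 without the 2 libraries (adjusted p = 0.0584). Cyp3a11, a target of PXR, had a difference of 0.47 (adjusted p = 0.852), which turned to -1.56 without WT library 1 of 4 weeks (adjusted p = 0.254).

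Cholesterol synthesis had a median KO effect of 1.08 at 4 weeks and 0.44 at 8 weeks and a median difference of -0.73 over 24 genes, 4 of them positive. KO library 1 of 4 weeks stood apart here: its summed level was 888 CPM, below the 994 to 1318 CPM of WT, while KO libraries 2 and 3 held 3340 and 2375 CPM. Genes of PPAR-alpha and fatty acid oxidation had a median difference of 0.58 over 31 genes, 25 of them positive. For these the same library held 5609 CPM against 28810 and 21970 CPM in the other KO and 30130 to 44520 CPM in WT libraries of 4 weeks. By edgeR 0 of either list were called (3 and 9 at an unadjusted p under 0.05, 2 and 4 by DESeq2, 1 and 2 by limma voom). When KO libraries 3 and 4 were left out, Vnn3 (1.41) and Cyp4a14 (4.55) of the second list were called. Fibrosis and matrix genes had a median difference of 0.88 over 20 genes, 19 of them positive, with 0 called (8 at an unadjusted p under 0.05, 3 by DESeq2, 4 by limma voom). With KO libraries 3 and 4 left out, Tgfb1, Col4a1, Col4a2 and Loxl2 of that list were called, all higher.

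The remaining lists held 0 called differences; of these, Pparg in fatty acid synthesis was called lower (-1.87) when KO libraries 3 and 4 were left out. The median difference was 0.33 for 19 genes of the growth hormone and IGF axis, 0.03 for 15 fetal and juvenile growth genes, 0.29 for 19 genes of fatty acid synthesis, 0.16 for 24 NRF2 targets, -0.06 for 23 stress genes and -0.35 for 19 clock genes. At an unadjusted p under 0.05 these lists held 3, 2, 1, 3, 3 and 2 genes, against 16.2% of all genes tested. By DESeq2 it was 1, 2, 1, 1, 1 and 1 genes, and by limma voom 1, 2, 1, 1, 1 and 0. Among markers the median difference was 0.07 for 9 cholangiocyte genes, 0.59 for 14 stellate cell genes, 0.54 for 14 pericentral and -0.27 for 14 periportal hepatocyte genes. Of these lists 1, 1, 2 and 5 genes had an unadjusted p under 0.05, with 0 in each called by DESeq2 and 0, 0, 1 and 4 by limma voom. Of the adipose, pancreas and muscle markers 1, 1 and 0 had enough counts to be tested. Lep and Prss2 were at 0 in all 16 libraries, and the muscle counts lay almost wholly in KO library 6 of 8 weeks, as given above.

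The number of called differences rested on single libraries, while their direction did not. Leaving out 1 library at a time gave 2 to 459 called genes, against 107 with all 16, and all 107 kept their sign in each of these fits. The 107 genes were picked for large differences in these same libraries, so a change of sign was unlikely from the start. It was 2 without WT library 3 of 4 weeks, 9 without WT library 2 of 4 weeks, and 7, 6, 4 and 5 without WT libraries 1 to 4 of 8 weeks. It was 19, 37, 44, 56 and 76 without KO libraries 5, 6, 2, 4 and 3 of 8 weeks, and 459 without KO library 1. Without KO library 1, 2 or 3 of 4 weeks it was 159, 50 and 84, and without WT library 1 of 4 weeks 105. Sult1b1 and Siglec1 were the 2 genes called in all 16 fits, 31 of the 107 were called in at least 8 and 56 in at most 4. Of the 20 named genes with a called difference, 17 lost it whenever WT library 3 of 4 weeks or any WT library of 8 weeks was left out; the exceptions were Sult1b1, Mpv17l and Folr2.

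**Figure D5:**
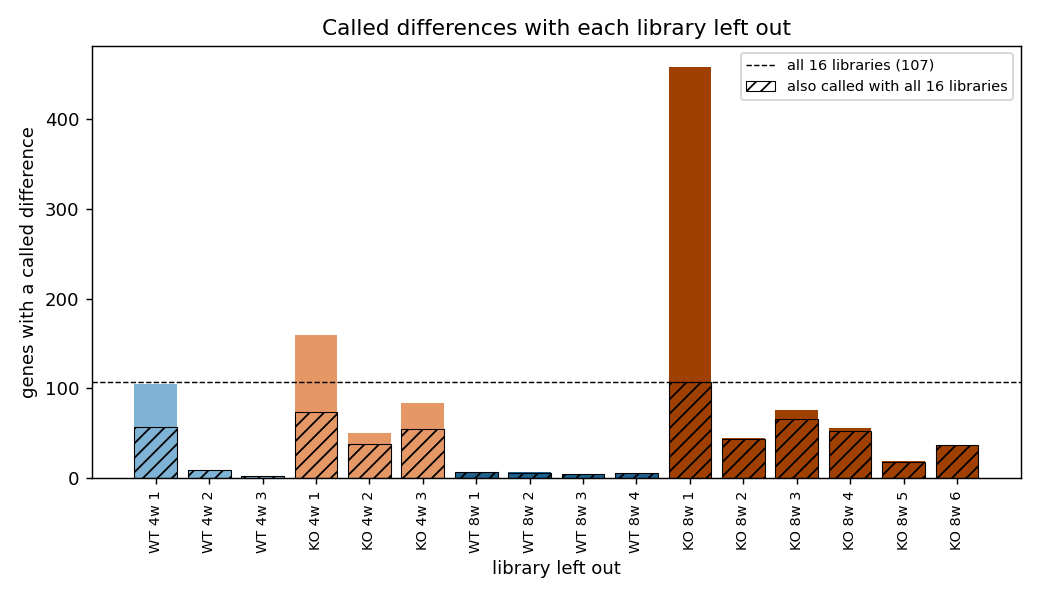
Number of genes with a called difference (y axis) when each of the 16 libraries is left out (x axis), with the hatched part for genes also called with all 16 libraries and the dashed line at 107. The count is at most 9 without any WT library other than WT 1 of 4 weeks and is 459 without KO library 1 of 8 weeks.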

How the data were processed

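Liver RNA-seq of 16 libraries was used: 3 WT and 3 Slc10a1-/- of 4 weeks, 4 WT and 6 Slc10a1-/- of 8 weeks, grouped by title. The authors deposited raw read counts per gene, 1 file a library. Per the submitters' processing notes the build was GRCm38 and the tools were HISAT2 2.0.4 and HTSeq 0.6.1p1; annotation release and strand setting are not given in the sources used here. Each file's 5 summary lines were left out of library sizes; reads in no feature were 6.13% to 17.8% and ambiguous reads 4.71% to 7.30% of all lines.

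Counts were filtered with filterByExpr (15302 of 47729 genes), scaled by TMM and fitted with 4 group means by edgeR 4.0.16 (R 4.3.3). Contrasts were tested with the two-sided quasi-likelihood F-test, Benjamini-Hochberg adjusted over all genes tested, at 0.05. Errors are standard errors and 95% intervals from that fit; CPM are TMM-scaled. A count of 3 corresponds to 0.431 to 0.546 CPM at 4 weeks and 0.115 to 0.158 CPM at 8 weeks, counting error only. The scripts were tested on simulated data.

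Alternatives were DESeq2 1.42.0, limma 3.58.1 voom with sample weights, RLE scaling, no filter, all 22 libraries, thinned 8-week libraries, a replicate block, each age alone, each library left out, and KO libraries 3 and 4 of 8 weeks left out. Named genes were a panel of 14, up to 8 genes per direction with the most extreme called differences (mean log2 CPM of at least 1, no predicted-gene names, no overlap of KO and WT at one age), and up to 3 called members of each list. Members and the 33 lists (638 symbols, 2 not matched) were chosen with earlier results of these data known. Promoters came from RefSeq (GRCm38.p6). Some items are not reported here.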

Additional observations from a re-analysis of the deposited data

Results flagged for a closer look

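The KO effect differed between the ages by the test of the difference itself for 56 genes in the higher and 51 in the lower direction. Among named genes with a higher difference the log2 values were 4.46 for Cdkn3, 3.02 for Cmpk2, 2.60 for Ifit3, 2.59 for Ugt1a9, 2.45 for Irf7, 2.34 for Slfn8, 2.21 for Tle2, 2.17 for Folr2, 2.04 for Coro2b, 1.65 for Rsad2, 1.64 for Clec4f and 1.51 for Ifit2. Among those with a lower difference they were -3.19 for Hamp, -2.55 for Trdmt1, -2.51 for Actg1, -2.42 for Mapk8ip1, -2.40 for Klf1, -2.09 for Klf10, -2.05 for Sult1b1 and -1.96 for Mpv17l.

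In 2 of the 66 groups of named genes examined, 1 library stood far from the others by Dixon's criterion, which chance meets in about 1 in 20 groups. These were Folr2 in WT library 1 of 8 weeks, at 10.7 CPM, and Rsad2 in KO library 6 of 8 weeks, at 10.2 CPM.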

How the results depend on the processing

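Of 107 called differences, DESeq2 kept 105 among 612 (294 higher, 318 lower; 578 called at 4 weeks only, 10 at 8 weeks only) and called 120 genes at 8 weeks. Limma voom with sample weights kept 100 among 704 (200 higher, 504 lower; 654 and 19 by age) and called 938 at 8 weeks. With no low-count filter 17 were called (11 and 6, all 17 at 4 weeks only) and 1250 at 4 weeks. With all 22 libraries the count was 52 (25 and 27, all 52 at 4 weeks only). RLE scaling gave 87, and thinning the 8-week libraries 81, with 1 gene called at 8 weeks. The 4-week libraries alone called 1200. Without KO libraries 3 and 4 of 8 weeks 181 were higher and 90 lower, 68 at 8 weeks only, and 1631 genes were called at 8 weeks; the cause was not tested.

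With the replicate block within age 0 genes were called higher and 0 lower (0 at 4 weeks only; 1622 at an unadjusted p under 0.05), 524 at 4 weeks and 1 at 8 weeks. Same-numbered libraries deviated together with correlations of -0.31 to 0.07, so the numbers were not taken as pairs.

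Leaving out 1 library gave 1 to 202 higher and 1 to 257 lower calls, 2 to 451 at 4 weeks only, 0 to 1 at 8 weeks only, 693 to 2770 at 4 weeks and 2 to 19 at 8 weeks.

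None of the 20 named called genes, which were picked for called differences in these same libraries, changed sign. Those that did were uncalled: Cyp7b1 (2.73) at -0.90 with voom and -2.43 without KO libraries 3 and 4, Cyp3a11 (0.47) at -1.27 with voom, -0.59 with the block and from -1.56 to 0.99 with 1 library left out, Sult2a1 (-0.38) at 0.20 without KO libraries 3 and 4 and from -1.28 to 0.60 with 1 library left out, Slco1a4 (-0.47) at 0.085 and Mup20 (5.56) at -0.21 without KO libraries 3 and 4. The shallower 4-week libraries limit low genes such as Cdkn3 and Cmpk2.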

Other observations

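Nnt, which encodes the mitochondrial transhydrogenase and is known to be defective in one C57BL/6 substrain, was looked at after its values were seen. It held 165 to 175 CPM in WT and 39.7 to 98.3 CPM in KO at 4 weeks, and 78.0 to 92.8 CPM in WT and 88.5 to 169 CPM in KO at 8 weeks. The difference was 1.74 (SE 0.36, adjusted p = 0.0436), and the labels used here do not give the substrain. On chromosome 12, where Slc10a1 lies, 3 of the 508 genes tested had a called difference, and within 10 Mb of Slc10a1 0 of 146 had one, against 0.699% of all genes. Of those 146 genes 14 were called at 4 weeks, against 12.8% of all genes. None of these counts lay above the share over all genes.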
